A study of Mus musculus with 40 samples.

Results

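The genes described here are 9 effectors of cell death: Fas, Casp8, Bid, Bcl2l11, Ripk1, Ripk3, Mlkl, Casp1, and Gsdmd. They were chosen by name from the 55487 genes of the deposited count table, with no measured value in the rule. Earlier results of these data were known when they were chosen. All 9 passed the filter on low counts, as did 20297 genes in all. Livers came from female C57BL/6JBomTac mice, and each library was made from RNA of whole liver tissue, as labelled, without a sort of its cells. Hepatocyte-specific Nampt knockout (HNKO) mice carried Nampt fl/fl and Alb-Cre+/-, in which the albumin promoter drives Cre in hepatocytes. Nampt in the other cells of the liver was not measured separately. The WT mice were littermates with the floxed alleles and no Cre, and thus no group controls for Cre itself. Both genotypes were fed a purified control diet (PD) from 9 weeks of age and sampled after 3, 6, 12, or 21 days; the labels state these day counts as age. For WT, 5, 4, 5, and 5 libraries were used at days 3, 6, 12, and 21, and for HNKO 5, 5, 6, and 3, with no animal in more than 1 group.

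Cells can die by programs that differ in how the membrane and its contents are handled. In apoptosis, death receptors such as FAS or stress signals passed through BH3-only proteins activate caspases, which dismantle the cell while its membrane holds. In necroptosis, the kinases RIPK1 and RIPK3 lead to phosphorylation of MLKL, which then breaches the plasma membrane, and in pyroptosis inflammatory caspases such as CASP1 cleave GSDMD into a fragment that forms pores. Hepatocytes are known for strong sensitivity to FAS, and both RIPK3 and CASP1 are better known from leukocytes than from hepatocytes. All of these proteins are controlled by cleavage or phosphorylation, which RNA counts do not measure.

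The transcript of the necroptosis executor Mlkl was the member that differed between genotypes at the most days. HNKO livers held more of it than WT livers at days 3, 6, and 12, by 1.57-fold, 1.75-fold, and 1.52-fold. Ripk3, which encodes the kinase that acts on MLKL, was higher at days 6 and 12 by 1.58-fold and 1.6-fold, and Casp1 was higher at day 6 by 1.54-fold. The transcripts of Fas, Casp8, Bid, Bcl2l11, Ripk1, and Gsdmd did not pass the threshold at any day in edgeR. DESeq2 called Fas as lower at day 3 (adjusted p = 0.0489). Of the 9 members, 1 was called at day 3 (Mlkl, edgeR, adjusted p under 0.05), against 4.66% of all tested genes called at that day. At day 6, 3 of 9 were called against 12.8% of all genes, at day 12 it was 2 of 9 against 7.82%, and at day 21 it was 0 of 9 against 3.12%. At day 21, 3 members had an unadjusted p under 0.05 in edgeR, and DESeq2 called 1, Mlkl. Every member called by edgeR was higher in HNKO. The share of all genes called as higher was 2.95%, 8.42%, 4.56%, and 2.21% at days 3, 6, 12, and 21. Mlkl was higher at 3 of the 4 days, as were 1.87% of all tested genes at 3 or more days, and Ripk3 at 2 days, as were 4.3% at 2 or more. Over the 9 members, the median log2 fold change was -0.03, 0.19, 0.09, and 0.05 at the 4 days, where the median of all tested genes was 0.01, -0.01, 0.00, and -0.01.

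**Figure D1:**
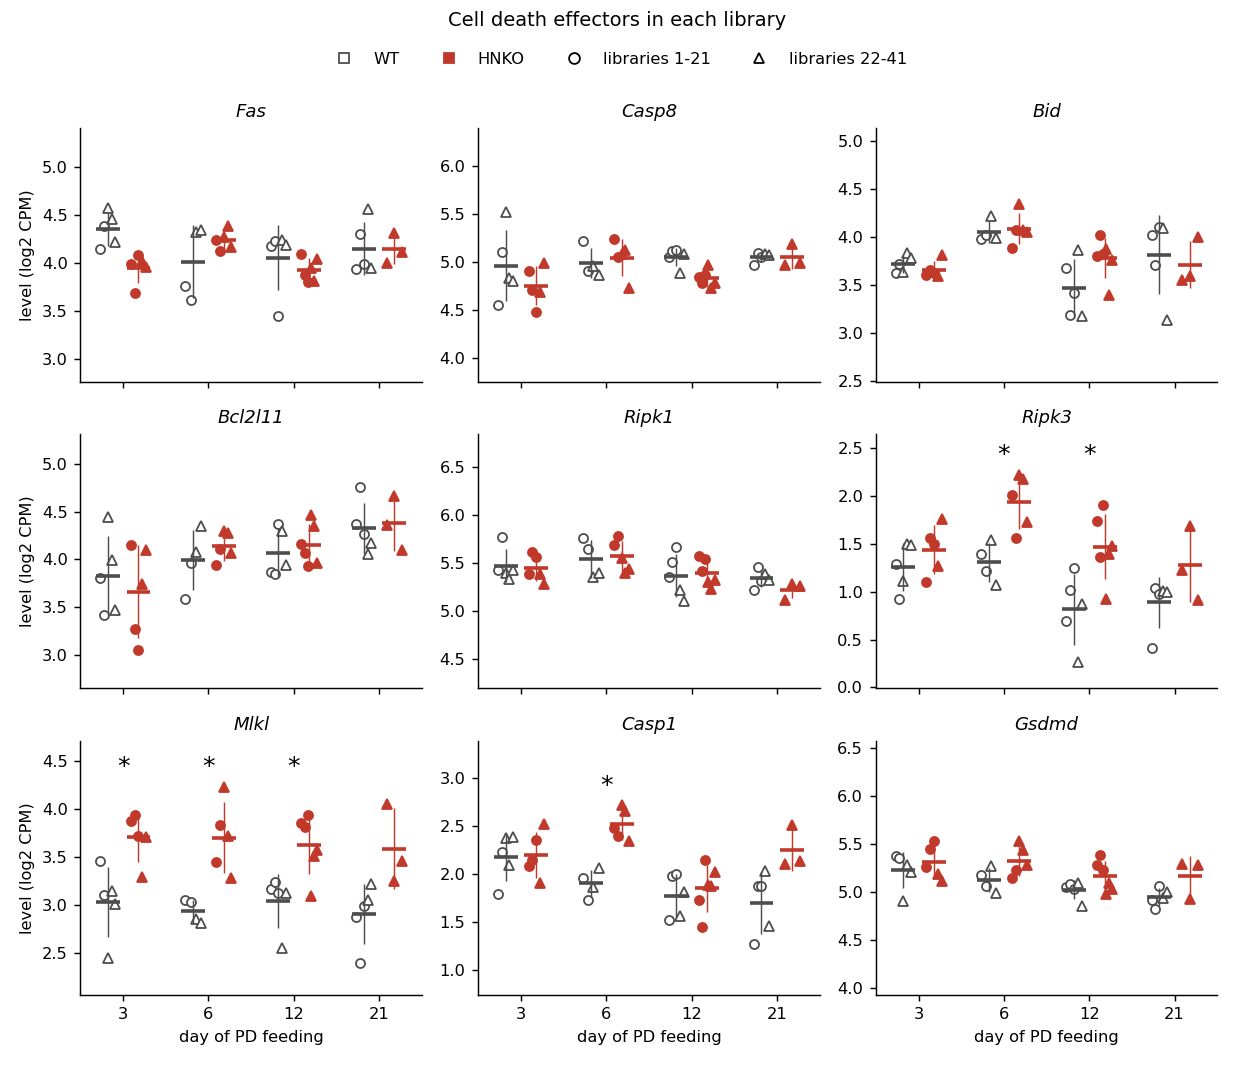
Level of each of the 9 genes (y axis, log2 CPM, counts per 1000000 scaled by TMM) in each of the 38 libraries by day of PD feeding (x axis), with WT in open gray symbols and HNKO in filled red symbols. Circles are libraries 1 to 21 and triangles libraries 22 to 41, horizontal bars are group means, vertical lines span 1 SD on either side, every panel covers the same height in log2 units, and an asterisk marks an adjusted p under 0.05 (edgeR). Mlkl lies higher in HNKO at all 4 days and passes the threshold at 3, while the groups of Ripk1 and Bcl2l11 overlap at every day.

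The 38 libraries held 16151037 to 64181492 counted fragments (median 26466478.5), and 2 further HNKO libraries of day 21, numbers 17 and 18, are marked in the labels as having failed quality control and were left out. In the left-out library 17, Ripk3 had 0 counts and Bid 2, whereas Casp1 stood at 4.10 log2 CPM against at most 2.06 in WT livers of day 21, and where adding both libraries to the fit changed the call of a member, the value with them is given beside it. The pathway and marker lists were counted without them. Nampt, the deleted gene, was lower in HNKO by log2 fold changes of -0.93, -0.90, and -0.82 at days 3, 6, and 12 (edgeR, adjusted p from 0.0128 to 0.0208). At day 6, 4 of 5 HNKO libraries lay below every WT library, while HNKO library 7 (6.36 log2 CPM) lay above WT libraries 27 and 28 (6.00 and 5.99). At day 21 Nampt lay below every WT library in 3 of 3 HNKO libraries without passing the threshold (-0.69, edgeR, adjusted p = 0.161). The numbers of the libraries form 2 series (1 to 21, and 22 to 41), each with all days, which gave 7 comparisons of the genotypes within a series and day. Each held 2 to 3 libraries per genotype, and the share of all genes higher in every comparison was not counted. Day 21 could be compared only within the second series, since the first holds no HNKO library that was used.

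Levels between genes were compared per kilobase of exon, as log2 of fragments per kilobase and 1000000 counted fragments (log2 FPKM) in the 19 WT livers. By this measure Gsdmd was the most abundant transcript of the 9 at 3.83 ± 0.16 (SD, n = 19), followed by Casp8 at 3.48 ± 0.20, Fas at 3.11 ± 0.30, and Ripk1 at 2.36 ± 0.18. Bid stood at 1.92 ± 0.33, Mlkl at 1.77 ± 0.27, Casp1 at 1.30 ± 0.30, and Bcl2l11 at 1.05 ± 0.35. Ripk3 was the scarcest at -0.14 ± 0.34, with 32 to 197 counts per library. In this order, Bid and Mlkl, and Casp1 and Bcl2l11, lay closer to each other than the larger of their SDs, while all other pairs of neighbors were further apart. The values of Ripk3 therefore rest on few fragments. The order depends on the length of all annotated exons, 8344 bases for Ripk1 and 2377 for Gsdmd. Without it, Ripk1 stood above Gsdmd, at 5.42 against 5.16 log2 CPM over the 38 libraries.

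Mlkl (ENSMUSG00000012519.14) encodes the pseudokinase that carries out necroptosis. Its locus in GRCm38 spans 111311797 to 111338177 of chromosome 8 (minus strand), and 0% of its stretches of 51 bases occur in transcripts of other genes. Ripk3 (ENSMUSG00000022221.14) spans 55784995 to 55788865 of chromosome 14 (minus strand), likewise with 0% of shared stretches. Since these were the members called at 2 or more days, the 250 bases before their transcription starts are shown, from RefSeq on GRCm38.p6. They are at chr8:111338206-111338455 and chr14:55788858-55789107, on the minus strand and written 5′ to 3′, with an E-box (CACGTG) and a GC box (GGGCGG) in capitals.
Mlkl: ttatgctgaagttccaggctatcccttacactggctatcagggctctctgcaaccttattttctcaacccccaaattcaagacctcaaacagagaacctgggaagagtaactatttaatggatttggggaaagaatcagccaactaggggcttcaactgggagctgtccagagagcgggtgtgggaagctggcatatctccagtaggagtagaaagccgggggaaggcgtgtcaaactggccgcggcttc
Ripk3: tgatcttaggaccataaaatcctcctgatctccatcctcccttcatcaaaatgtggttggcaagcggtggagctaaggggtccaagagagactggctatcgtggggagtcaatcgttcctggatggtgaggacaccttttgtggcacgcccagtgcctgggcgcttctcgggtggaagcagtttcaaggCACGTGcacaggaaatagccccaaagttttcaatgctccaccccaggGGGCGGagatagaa
On either strand, neither window held an ISRE-like motif (GAAANNGAAA, in 2.98% of 32536 promoter windows of this length) or an NF-kB-like motif (GGGNNTTTCC, 1.4%). These are letters known to be bound by interferon regulatory factors and by NF-kB. The Ripk3 window held 1 E-box, present in 6.04% of windows, with its first base at position -61 from the start, and 1 GC box, present in 33%, at position -14. The Mlkl window held neither. The E-box and GC box were searched after the sequences had been seen. These matches describe letters and not binding, and no match says only that the letters are absent from the window. Promoter sequences were matched for 8 of the 9 members.

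At day 3, Mlkl stood at 3.45, 3.10, 2.44, 3.14, and 3.01 log2 CPM in the 5 WT libraries. In the 5 HNKO libraries it stood at 3.87, 3.94, 3.71, 3.29, and 3.70. Of the HNKO libraries 4 lay above the highest WT library, and 1 lay within the WT range. The difference was 0.65 on the log2 scale (SE 0.19) and passed the threshold (edgeR, adjusted p = 0.0391). This call held in 3 of 10 fits that left out 1 library of the day and was lost without HNKO libraries 2, 3, or 23 or WT libraries 5, 24, 25, or 26 (edgeR, adjusted p up to 0.111), with all 40 libraries (adjusted p = 0.0759), with no filter beyond 1 count (0.0579), and with only the 2 groups of the day in the fit (0.0674).

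At day 6, Mlkl was 3.05, 3.02, 2.85, and 2.81 log2 CPM in WT and 3.45, 3.83, 4.23, 3.72, and 3.28 in HNKO livers. Every HNKO library lay above every WT library, as for 3 of the 9 members (Mlkl, Ripk3, and Casp1), while HNKO libraries lay wholly above WT for 8.08% of all tested genes. This was a log2 fold change of 0.81 with an SE of 0.20 (edgeR, adjusted p = 0.0076), and it passed the threshold in 9 of 9 fits that left out 1 library and under all 7 other settings, from 0.80 to 0.84. HNKO library 29 held the highest value, and without it the log2 fold change was 0.67 (edgeR, adjusted p = 0.0456).

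At day 12, Mlkl was 3.16, 3.24, 3.12, 2.54, and 3.12 log2 CPM in WT livers. The 6 HNKO livers ranged from 3.09 to 3.94 with a median of 3.69, and 5 of them lay above the highest WT library. HNKO exceeded WT by 0.60 on the log2 scale, SE 0.18 (edgeR, adjusted p = 0.0368). The call was lost without HNKO libraries 11, 12, or 13 or WT libraries 16, 33, or 34 (edgeR, adjusted p up to 0.104) with all 40 libraries (adjusted p = 0.0699), with no filter beyond 1 count (0.0549), and with only the 2 groups of the day (0.0532).

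At day 21, Mlkl was 2.87, 2.39, 2.99, 3.05, and 3.21 log2 CPM in WT and 4.05, 3.25, and 3.45 in HNKO livers. Here too the HNKO libraries lay above all WT libraries, as for 2 of the 9 members (Mlkl and Casp1) and 7.25% of all tested genes. The log2 fold change of 0.70 (SE 0.21) stayed short of the threshold (edgeR, adjusted p = 0.0584). With HNKO library 38 left out it passed (0.88, edgeR, adjusted p = 0.0313), as it did with all 40 libraries (0.71, adjusted p 0.0265), with the series of the library as a covariate (0.81, adjusted p 0.0272), and in DESeq2 (0.71, adjusted p 0.0364), whereas without HNKO library 37 it was 0.45 (adjusted p = 0.660). The log2 fold changes ran from 0.60 to 0.81 over the 4 days, and the test of whether they varied between days gave an adjusted p of 0.9998 (edgeR, genotype by day interaction). Within the 2 series of libraries, Mlkl was higher in HNKO in 7 of 7 comparisons, by 0.45 to 0.91 on the log2 scale. Ripk3 and Gsdmd, the latter without a call at any day, were also higher in 7 of 7.

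Ripk3 was low in all groups. At day 3 it was 1.29, 0.92, 1.11, 1.5, and 1.48 log2 CPM in WT and 1.10, 1.56, 1.49, 1.27, and 1.75 in HNKO livers, with overlapping ranges and a difference of 0.18, SE 0.19 (edgeR, adjusted p = 0.657). At day 6, the values were 1.40, 1.22, 1.54, and 1.07 in WT and 2.01, 1.55, 2.22, 2.17, and 1.73 in HNKO livers. Each HNKO library lay above the 4 WT libraries, the nearest by a small margin. At that day HNKO was higher by 0.66, SE 0.21 (edgeR, adjusted p = 0.0315). The threshold was missed without WT libraries 8, 10, or 28 or HNKO libraries 29 or 30 (edgeR, adjusted p up to 0.0998), with all 40 libraries (0.342), with no filter beyond 1 count (0.0560), or with only the 2 groups of the day (0.0595).

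At day 12, Ripk3 was 0.69, 1.02, 1.24, 0.26, and 0.88 log2 CPM in WT livers, and from 0.93 to 1.91 with a median of 1.43 in the 6 HNKO livers. All but 1 HNKO library exceeded the WT libraries. The difference of 0.68, SE 0.19, was called (edgeR, adjusted p = 0.0246), and it was lost without HNKO libraries 11 or 13 or WT libraries 14 or 33 (edgeR, adjusted p up to 0.0807) with all 40 libraries (0.296), and with only the 2 groups of the day (0.0878). At day 21, the WT livers held 0.42, 1.04, 0.98, 1.01, and 1.0 and the HNKO livers 1.22, 1.68, and 0.92. These overlapped, and HNKO exceeded WT by 0.40, SE 0.22, with no call (edgeR, adjusted p = 0.348). Within the series of libraries Ripk3 was higher in HNKO in 7 of 7 comparisons, by 0.15 to 0.74, and the difference was not shown to vary between days (edgeR, interaction adjusted p = 0.9998).

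Ripk1 (ENSMUSG00000021408.15, chromosome 13 from 34002363 to 34037147, plus strand) encodes the kinase that joins death receptors to survival signaling, to caspase-8, or to RIPK3. In contrast to its partner kinase, it was not called at any day, and its group means lay between 5.22 and 5.57 log2 CPM. The log2 fold changes were -0.03 (95% interval -0.23 to 0.17), 0.03 (-0.19 to 0.24), 0.02 (-0.17 to 0.21), and -0.12 (-0.35 to 0.11) at days 3, 6, 12, and 21, with adjusted p of at least 0.655 (edgeR). The upper bounds of these intervals lie below each log2 fold change of Mlkl. Ripk1 exons overlap those of Serpinb6a on the opposite strand by 241 bases (median 531 counts), and since the use of the strand in counting is not stated, some fragments could belong to either gene.

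**Figure D2:**
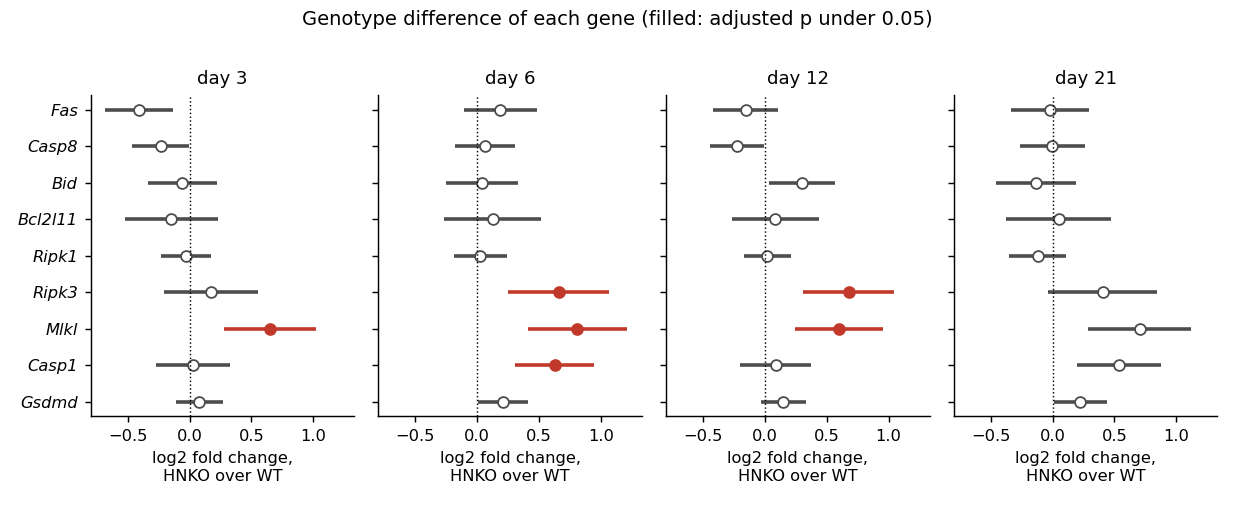
Log2 fold change of HNKO over WT (x axis) with its 95% interval for each gene (y axis) at days 3, 6, 12, and 21, filled and red where the adjusted p was under 0.05 (edgeR). The 6 filled points, 3 for Mlkl, 2 for Ripk3, and 1 for Casp1, all lie between 0.60 and 0.81, and the intervals of Ripk1 include 0 at every day.

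Casp1 (ENSMUSG00000025888.6, chromosome 9 from 5298517 to 5307265, plus strand) encodes the inflammasome caspase that matures interleukin-1 beta and cleaves GSDMD. At day 3 it was 1.78, 2.22, 2.37, 2.09, and 2.38 log2 CPM in WT and 2.08, 2.14, 2.35, 1.91, and 2.52 in HNKO livers, which overlapped and differed by 0.03 on the log2 scale, SE 0.15 (edgeR, adjusted p = 0.943). At day 6, WT livers held 1.96, 1.72, 1.86, and 2.06 and HNKO livers 2.48, 2.39, 2.71, 2.65, and 2.34. Every HNKO value lay above every WT value. HNKO exceeded WT by 0.62, SE 0.16 (edgeR, adjusted p = 0.0104), a call kept in 9 of 9 fits without 1 library and lost over all 40 libraries (adjusted p = 0.180).

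At day 12, Casp1 was 1.52, 1.98, 2.0, 1.55, and 1.81 log2 CPM in WT livers and from 1.44 to 2.14, with a median of 1.88, in HNKO livers. Here the groups overlapped and differed by 0.09, SE 0.15 (edgeR, adjusted p = 0.768). At day 21, the WT values were 1.26, 1.87, 1.87, 2.03, and 1.45 and the HNKO values 2.11, 2.50, and 2.13. All 3 HNKO libraries were above the WT libraries, as was the case for 7.25% of all tested genes at that day. The difference of 0.54, SE 0.17, was not called (edgeR, adjusted p = 0.0786). Over all 40 libraries it was 1.13 and called (edgeR, adjusted p = 0.00691), with library 17 far above the rest.

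Casp1 was the only member called by edgeR for a difference between days in HNKO livers ( adjusted p = 0.0198, 7.9% of all genes called), with group means of 2.20, 2.52, 1.85, and 2.25 log2 CPM at days 3, 6, 12, and 21. In WT livers the means were 2.17, 1.90, 1.77, and 1.70 (edgeR, adjusted p = 0.153). In WT, 0 of 9 members were called for a day effect by edgeR, against 5.84% of all genes. The unadjusted p was under 0.05 for 4 members, and 1 member, Bid, was called by DESeq2 (adjusted p = 0.0324) and with the series of the library as a covariate (edgeR, 0.04995). In HNKO livers 6 members had an unadjusted p under 0.05 in edgeR, and DESeq2 called 2 members, Casp1 and Ripk3. The genotype by day interaction of Casp1 had an unadjusted p of 0.0221 and an adjusted p of 0.996 in edgeR. This test called 0 of 9 members in edgeR and in DESeq2, and 2 had an unadjusted p under 0.05, Casp1 and Fas. Over all genes, edgeR called 0 (0% of those tested, 966 at an unadjusted p under 0.05) and DESeq2 called 12. The genotype differences of the members are therefore not shown to differ between days.

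Gsdmd (ENSMUSG00000022575.5, chromosome 15 from 75862327 to 75867408, plus strand) encodes the pore-forming substrate of inflammatory caspases. Its level changed little over the groups, whose means ran from 4.95 to 5.32 log2 CPM. The log2 fold changes were 0.08 (95% interval -0.11 to 0.27), 0.21 (0.00 to 0.41), 0.15 (-0.03 to 0.33), and 0.23 (0.01 to 0.44) at days 3, 6, 12, and 21, and the lowest adjusted p in edgeR was 0.197. At day 6 the unadjusted p was 0.0541 (edgeR), although the interval lies wholly on the positive side before rounding, and at day 21 it was 0.0494. All 4 log2 fold changes were positive, as were 7 of 7 differences within the series of libraries (0.02 to 0.28), but none passed the threshold. With all 40 libraries the value at day 21 was -0.0015.

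Fas (ENSMUSG00000024778.13, chromosome 19 from 34290666 to 34327772, plus strand) encodes the death receptor for FAS ligand. At day 3 it was 4.14, 4.38, 4.57, 4.46, and 4.22 log2 CPM in WT and 3.99, 3.68, 4.08, 4.02, and 3.96 in HNKO livers. Each HNKO library was below each WT library, as for 1.8% of all tested genes, and Fas was the sole member with this pattern. The difference of -0.41, SE 0.14, was not called by edgeR (adjusted p = 0.0791) and was called by DESeq2 (-0.42, adjusted p 0.0489).

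At day 6, Fas in WT livers were at 3.76, 3.61, 4.33, and 4.35 and HNKO livers at 4.24, 4.12, 4.27, 4.38, and 4.16, a difference of 0.19, SE 0.15 (edgeR, adjusted p = 0.459). The 2 low WT values belong to the first series of libraries and the 2 high ones to the second. At day 12, WT livers stood at 4.17, 4.23, 3.45, 4.24, and 4.19, and the 6 HNKO livers ranged from 3.80 to 4.09 with 1 WT library, number 16, below all of them and the other 4 WT libraries above. The log2 fold change was -0.16 (edgeR, adjusted p = 0.506) and without library 16 it was -0.27 (adjusted p = 0.186). At day 21 the libraries overlapped, and the log2 fold change was -0.02 (edgeR, adjusted p = 0.970). Within the series, Fas was higher in HNKO in 1 of 7 comparisons, and the differences ran from -0.43 to 0.49.

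Casp8 (ENSMUSG00000026029.14, chromosome 1 from 58795374 to 58847503, plus strand) encodes the initiator caspase of death receptors, which also holds necroptosis in check by cleaving RIPK1 and RIPK3. The log2 fold changes were -0.23 (95% interval -0.46 to 0.00) at day 3, 0.06 (-0.18 to 0.30) at day 6, -0.22 (-0.44 to -0.01) at day 12, and 0.00 (-0.27 to 0.26) at day 21. None was called, and the lowest adjusted p was 0.210 (edgeR, day 12). The unadjusted p was 0.0551 at day 3 and 0.0527 at day 12 (edgeR), although both intervals lie wholly on the negative side before rounding. The value at day 3 was -0.33 without WT library 1 and -0.07 without WT library 24. At day 12, WT livers stood at 5.05, 5.11, 5.12, 4.88, and 5.08 log2 CPM, and HNKO livers ranged from 4.73 to 4.97 with a median of 4.81. There 5 of 6 HNKO libraries lay below the lowest WT library. Of the stretches of 51 bases in its transcripts, 4.24% also occur in another gene.

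Bid and Bcl2l11 encode BH3-only proteins, of which BID links caspase-8 to mitochondria and BIM, the product of Bcl2l11, responds to loss of survival signals. Bid (ENSMUSG00000004446.12) is on chromosome 6 from 120891930 to 120916853, minus strand, and Bcl2l11 (ENSMUSG00000027381.16) on chromosome 2 from 128126038 to 128162547, plus strand. The log2 fold changes of Bid were -0.06, 0.04, 0.30, and -0.13 at days 3, 6, 12, and 21. At day 12, where it was largest, the libraries overlapped (3.68, 3.19, 3.42, 3.87, and 3.18 log2 CPM in WT and 3.40 to 4.02 with a median of 3.82 in HNKO), and the adjusted p was 0.165 (edgeR). Bid exons overlap those of Bcl2l13 on the opposite strand by 628 bases (median 1301.5 counts), and 16.3% of its stretches of 51 bases occur there. The counts of Bid are uncertain for this reason, and the share of them that could belong to Bcl2l13 was not measured. For Bcl2l11 the log2 fold changes were -0.15, 0.12, 0.09, and 0.05 (adjusted p of at least 0.715, edgeR). The 95% intervals of these values were -0.52 to 0.23, -0.27 to 0.52, -0.27 to 0.44, and -0.38 to 0.47, so that differences of the size seen in Mlkl at day 3 lay outside them.

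Other genes of the same programs were counted from lists of their known members. Of all tested genes, 2.95%, 8.42%, 4.56%, and 2.21% were called as higher at days 3, 6, 12, and 21. Called in either direction were 4.66%, 12.8%, 7.82%, and 3.12%, and the list counts were not tested against these shares. Of 12 tested genes of death receptor signaling, 2, 5, 2, and 1 were higher in HNKO at days 3, 6, 12, and 21, and 1 was lower, at day 12. Tnfrsf10b, the mouse receptor for TRAIL, was higher at every day, with log2 fold changes of 1.76, 2.38, 1.74, and 2.19. Their SEs were 0.45, 0.52, 0.44, and 0.49, and the adjusted p in edgeR was 0.0209, 0.00231, 0.0154, and 0.0127. Tnfrsf12a, the receptor for TWEAK, was higher at day 3 (2.01, edgeR adjusted p 0.0223) and day 6 (2.15, adjusted p 0.00951), and Tnfrsf21 at day 6 (0.85, adjusted p 0.00127) and day 12 (0.49, adjusted p 0.0439). Tnf, the ligand of TNF receptor 1, was higher at day 6 (2.37, SE 0.47, edgeR adjusted p 0.00104). The gene lower at day 12 was Cflar, which encodes the caspase-8 inhibitor FLIP (-0.34, edgeR adjusted p 0.0334), and it was named after its value was seen. The median log2 fold change of the list was 0.15, 0.38, 0.11, and 0.24.

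Among 15 tested genes of the BCL2 family, 4 were higher at day 6, 1 at day 12, and 1 at day 21, and none was lower. The shares of all tested genes called as higher at these days were 8.42%, 4.56%, and 2.21%. At day 3 edgeR called 0 (7 at an unadjusted p under 0.05) and DESeq2 called 1, as lower. Genes of opposite function were among those called: Bcl2, which protects from apoptosis, was higher at day 6 (0.81, edgeR adjusted p 0.00307) and day 21 (0.85, adjusted p 0.0106), while Bax, whose product permeabilizes mitochondria, was higher at day 6 (0.49, adjusted p 0.0438). In fits without 1 library of day 6, the call of Bcl2 held in 9 of 9 and that of Bax in 3 of 9 (edgeR, adjusted p up to 0.276). Pmaip1, which encodes the BH3-only protein NOXA, was higher at day 6 (0.95, edgeR adjusted p 0.0218) and day 12 (0.86, adjusted p 0.0378). Bcl2a1b, a survival gene of leukocytes, was higher at day 6 (1.62, adjusted p 0.0368), though it shares most of its sequence with its near-identical copies and its counts are uncertain.

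Of 15 tested genes of the apoptosome and executioner caspases, 1 was higher and 2 lower at day 6, and 1 was lower at day 12. The shares of all tested genes called in either direction at these days were 12.8% and 7.82%. Apaf1, the scaffold of the apoptosome, was higher at day 6 (0.88, edgeR adjusted p 0.00477), where Casp9, the caspase it activates, was lower (-0.30, adjusted p 0.0475). In fits without 1 library, the call of Apaf1 held in 9 of 9 and that of Casp9 in 2 of 9 (edgeR, adjusted p up to 0.140). Aifm1, a mitochondrial oxidoreductase, was lower at day 6 (-0.39, edgeR adjusted p 0.0136) and day 12 (-0.32, adjusted p 0.0394). At days 3 and 21 edgeR called 0 of these genes (3 and 7 at an unadjusted p under 0.05), and DESeq2 called 1 and 0.

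Of 14 tested regulators of necroptosis, 2 were higher at day 6, against 8.42% of all tested genes. At days 3, 12, and 21, 0 were called by edgeR (3, 4, and 5 at an unadjusted p under 0.05), where DESeq2 called 0, 1, and 0. The 2 genes were Zbp1, whose product binds Z-form nucleic acids and engages RIPK3 (1.01, edgeR adjusted p 0.00667), and Tnfaip3, which encodes the ubiquitin-editing enzyme A20 (1.34, adjusted p 0.00599). The median of this list was 0.05, -0.05, -0.01, and -0.05 at the 4 days.

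Of 16 tested genes of the inflammasome and pyroptosis, 1, 6, 4, and 0 were higher at days 3, 6, 12, and 21, and 1 was lower at day 6. The shares of all tested genes called as higher were 2.95%, 8.42%, 4.56%, and 2.21%. At day 21, 5 genes of the list had an unadjusted p under 0.05 in edgeR and DESeq2 called 3. Casp12, an inflammatory caspase of the endoplasmic reticulum, was higher at day 3 (0.76, edgeR adjusted p 0.0337), day 6 (1.16, adjusted p 0.00135), and day 12 (0.84, adjusted p 0.0127). Casp4, the sensor of cytosolic lipopolysaccharide, was higher at day 6 (0.74, edgeR adjusted p 0.00623) and day 12 (0.53, adjusted p 0.0396), and so was the pyrin gene Mefv (2.04, adjusted p = 0.00108, and 1.28, adjusted p = 0.0291). Card9, an adaptor of myeloid cells, was higher at day 6 (1.09, edgeR adjusted p 0.00600). The gene lower at day 6 was Nlrp6 (-0.64, edgeR adjusted p 0.0319), named after its value was seen. Of the calls of genes named by rule in the 5 lists, 13 of 29 held in every fit without 1 library, among them Tnfrsf10b at days 6 and 12, Tnf, Tnfaip3, Zbp1, and Casp12 at days 6 and 12. The calls of Cflar and Nlrp6 held in 6 of 11 and 5 of 9 such fits. Without HNKO library 37, neither Tnfrsf10b (adjusted p = 0.426, edgeR) nor Bcl2 (adjusted p = 0.289) was called at day 21.

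**Figure D3:**
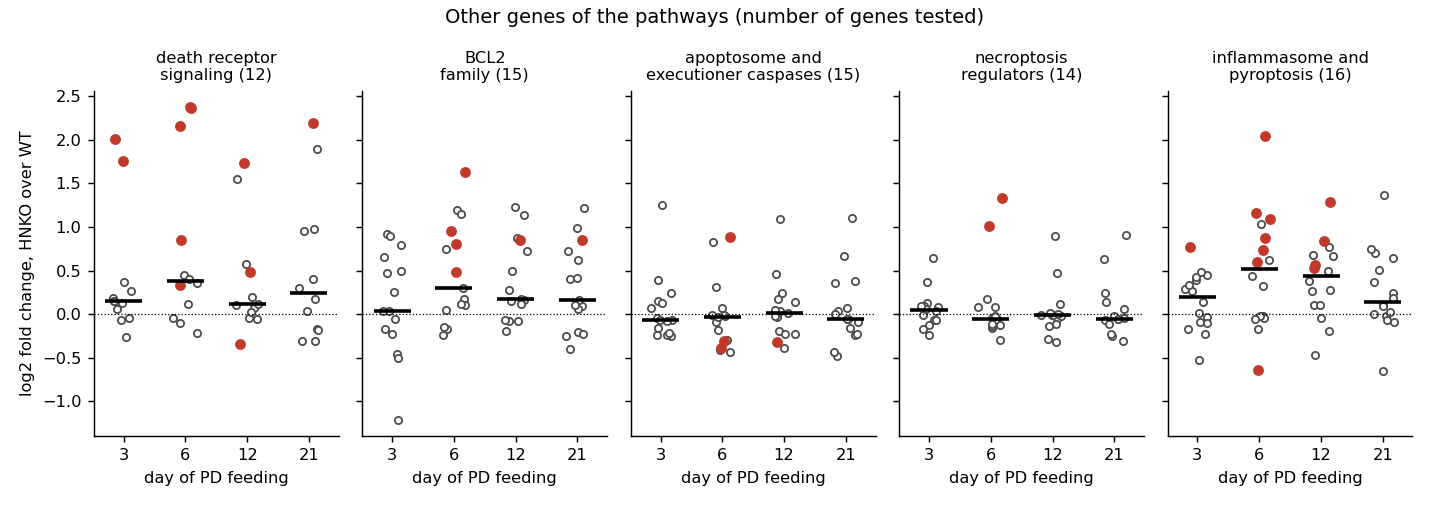
Log2 fold change of HNKO over WT (y axis) for the tested genes of 5 lists at each day of PD feeding (x axis), with horizontal bars at the median and red points where the adjusted p was under 0.05 (edgeR). Red points reach above 1.5 in death receptor signaling at all 4 days, and the day with the most red points in each list is day 6.

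Whole liver holds leukocytes, bile duct cells, and stellate cells besides hepatocytes, and in such bulk samples fewer cells of a type and less RNA per cell cannot be told apart. Of 10 pan-leukocyte markers, 0 were called at day 3 by edgeR (1 at an unadjusted p under 0.05) or DESeq2. At days 6, 12, and 21, where 8.42%, 4.56%, and 2.21% of all tested genes were higher, 8, 3, and 1 of these markers were higher. Their summed level ran from 228 to 308 CPM in WT and from 229 to 330 in HNKO livers at day 3. At day 6, it ran from 199.7 to 231 in WT and from 292 to 509 in HNKO livers, with no overlap. At day 12, the range was 172 to 208 in WT and 201 to 295 in HNKO livers, and at day 21 it was 167 to 208 and 221 to 313. The part of leukocytes in these differences was not tested.

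Beside the marker counts that follow, 2.95%, 8.42%, 4.56%, and 2.21% of all tested genes were called as higher at days 3, 6, 12, and 21. Called in either direction were 4.66%, 12.8%, 7.82%, and 3.12%. Monocyte and recruited macrophage markers were higher for 4, 9, 6, and 4 of 10 genes at these days. Their summed level was 97.2 to 119 CPM in WT and 171 to 467 in HNKO livers at day 6. Of 7 tested neutrophil markers 0, 7, 3, and 1 were higher, and of 10 Kupffer cell markers 0, 2, 1, and 0. No T and NK cell marker was called (2, 0, 1, and 0 of 10 at an unadjusted p under 0.05, with 1 lower at day 3 in DESeq2). B cell markers were called for 1 gene, lower at day 3, where the summed level had a median of 23.3 CPM in WT and 24.6 in HNKO livers, and 1 WT library stood far above the others at 216. Cholangiocyte markers were higher for 7, 7, 6, and 5 of 9 tested genes, and stellate cell and fibroblast markers for 3, 5, 3, and 3 of 10, with 1 lower at day 12. Endothelial markers were lower for 2 of 10 at days 6 and 12 and higher for 1 at day 12. Hepatocyte markers made up the bulk of the marker signal, at 109400 to 164400 summed CPM in WT and 69370 to 139400 in HNKO livers, and 2 of 9 were lower at day 6. No listed marker was at 0 counts in all 38 libraries. The part of these cells in the differences of the members was not tested.

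How the members varied with leukocyte markers among livers of the same genotype and day was measured on deviations from the group means over the 38 libraries, with 100000 permutations within groups (two-sided) and adjustment over the 9 members. Mlkl followed the summed pan-leukocyte markers (r = 0.71, rho = 0.74, adjusted p = 0.00036, permutation test). The relation remained without the 2 libraries farthest from the median, HNKO libraries 29 and 31 of day 6 (r = 0.64, adjusted p = 0.00279), and r was 0.40 among the 19 WT and 0.89 among the 19 HNKO livers. For Ripk3, r was 0.47 and rho 0.48 (adjusted p = 0.0429, permutation test), and without those 2 libraries r was similar at 0.42 but no longer passed (adjusted p = 0.118, permutation test). Among the 19 WT livers, none of which is one of those 2, it was 0.62. Gsdmd had an r of 0.45 (adjusted p = 0.0639), and the other 6 members lay between -0.12 and 0.21 with adjusted p of at least 0.421 in the same permutation test. Casp1 was among these (r = 0.16). The sums of the other cell types, such as cholangiocyte or stellate cell markers, were not compared in this way. The relation of Mlkl is therefore not shown to be particular to leukocytes.

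The permutations above did not separate the 2 series of libraries, and differences between the series within a group made up 30.3% of the squared deviations of the leukocyte sum, 36.3% of those of Mlkl, and 25.2% of those of Ripk3. With the means of each genotype, day, and series removed, and permutations within these, the relation of Mlkl remained (r = 0.74, adjusted p = 0.0121, permutation test). It was 0.57 within the 18 libraries of the first series and 0.78 within the 20 of the second. That of Ripk3 did not pass (r = 0.32, adjusted p = 0.426, permutation test), with 0.07 and 0.44 within the series.

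**Figure D4:**
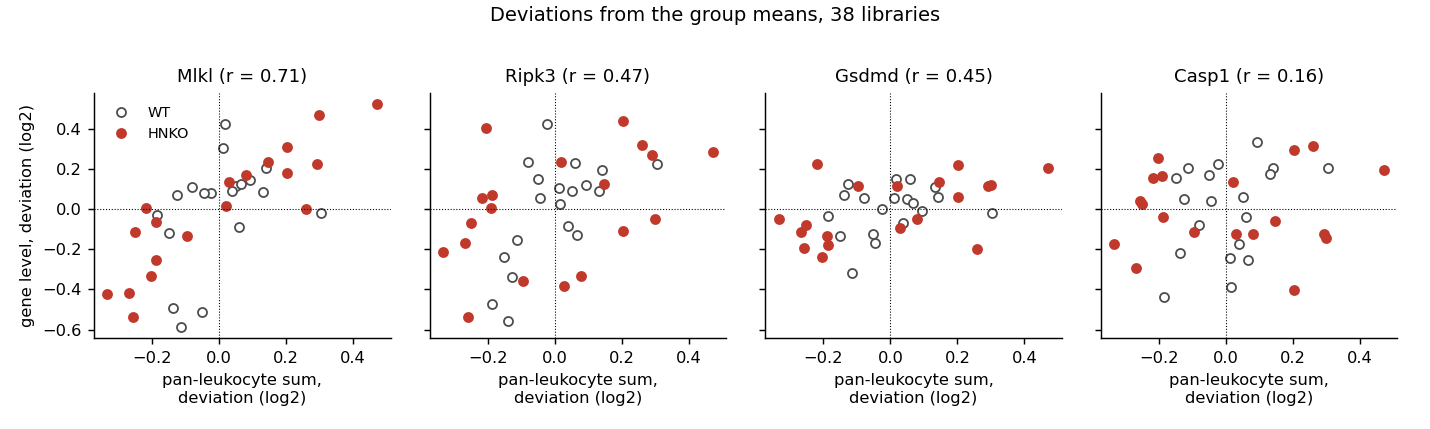
Deviation of Mlkl, Ripk3, Gsdmd, and Casp1 from the group mean (y axes, log2 CPM) against that of the summed pan-leukocyte markers (x axes, log2 of summed CPM) in 38 libraries, WT open and HNKO filled. The points of Mlkl rise along the diagonal with r = 0.71, most tightly in HNKO livers, and those of Casp1 show little slope with r = 0.16.

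Among the members themselves, 36 pairs were compared in the same way, and 2 passed the threshold. Mlkl and Gsdmd varied together (r = 0.63, rho = 0.57, adjusted p = 0.0137, permutation test), which was lost without WT library 24 and HNKO library 32 (r = 0.51, adjusted p = 0.0996). Ripk3 and Casp1 also did (r = 0.54, rho = 0.57, adjusted p = 0.0338, permutation test), and this remained without HNKO library 32 and WT library 33 (r = 0.57, adjusted p = 0.045). By ranks, Casp1 and Casp8 passed as well (rho = 0.49, adjusted p = 0.0348). With the means of the series removed as well, 0 of the 36 pairs passed in the permutation test (7 at an unadjusted p under 0.05), and r was 0.49 for Mlkl and Gsdmd (unadjusted p = 0.0494, adjusted 0.254) and 0.59 for Ripk3 and Casp1 (unadjusted p = 0.00228, adjusted 0.0821). For Mlkl and Ripk3, the members called at 2 or more days, r was 0.37 and did not pass (adjusted p = 0.198, permutation test).

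Over the same 38 libraries, the genes whose deviations were most like those of Mlkl were Ppm1h (r = 0.83), Tnip1 (r = 0.83), and Aldh3b1 (r = 0.83). For Ripk3 they were Gngt2 (r = 0.73), Myo9a (r = 0.71), and Prkcb (r = 0.70), and for Casp1 A030001D20Rik (r = 0.61), Cenpw (r = 0.61), and Eef1g (r = 0.60). Gsdmd was nearest to P2rx4 (r = 0.69), Ptpn6 (r = 0.65), and Aldh3b1 (r = 0.64), the last of which it shared with Mlkl. Ripk1 followed Trir (r = 0.90), Psme3 (r = 0.88), and Rn7sk (r = 0.87) the most. The nearest genes were Nceh1 (r = 0.79), Tmed5 (r = 0.78), and Dgkh (r = 0.75) for Casp8 and A530001N23Rik (r = 0.81), Ppp2r1b (r = 0.79), and Tgoln1 (r = 0.77) for Fas. For Bid they were Trim21 (r = 0.71), Cryz (r = 0.69), and Casp6 (r = 0.68), and for Bcl2l11 1110038B12Rik (r = 0.75), Mbtd1 (r = 0.73), and Cblb (r = 0.72). These values describe likeness over libraries that share series, depth, and tissue makeup and are given without a test.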

How the data were processed

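RNA was measured by paired-end sequencing of rRNA-depleted libraries from whole liver, with reads of 51 bases. The authors aligned reads with STAR (2.7.2b) to GRCm38, assigned them to GENCODE M22 genes with featureCounts (1.6.4), and deposited raw counts per gene. They used edgeR (3.26.0). Whether counting used the strand is not stated. The table held 40 libraries (0 columns of no mapped sample), of which 17 and 18 failed quality control and were left out. Symbols and exons came from GENCODE M21 (55394 of 55487 identifiers matched), and promoter sequences from RefSeq (GRCm38.p6).

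The 9 members and all gene lists were chosen with earlier results of these data known. Genes were filtered with filterByExpr (minimum count 10, minimum total 15, proportion 0.7), which kept 20297 genes, and scaled by TMM. One mean per genotype and day was fitted over 38 libraries with the quasi-likelihood test of edgeR (4.0.16, legacy computation, limma 3.58.1, R 4.3.3), with Benjamini-Hochberg adjustment over all tested genes of a comparison and a threshold of 0.05. Levels are log2 counts per 1000000 with a prior count of 2, and 95% intervals are the log2 fold change ± 1.96 SE. This normal quantile makes the intervals slightly narrower than the quasi-likelihood test allows. An interval can thus be wholly positive or negative at an unadjusted p above 0.05. Alternatives were DESeq2 (1.42.0), its size factors in edgeR, no filter beyond 1 count, all 40 libraries, the newer edgeR computation, the series of library numbers as a covariate, only the groups of 1 day, and leaving out each library. Both tools were first tested on simulated data with fold changes larger than those of the members, so that recovery at the size seen here was not tested. Named genes were Nampt, the members, up to 4 genes of each pathway list called at the most days (ties by the smallest p-value), and for each member the 3 genes most like it. Mice were randomized to groups by day, but the labels do not tie libraries to animals, so that p-values measure the spread between libraries. No pair of libraries within a group agreed within sampling noise (74 pairs, lowest chi-square per gene 12.48). Precision at low levels is limited by depth, and SEs cover the spread between libraries.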

Additional observations from a re-analysis of the deposited data

Results flagged for a closer look

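In 63 sets of 4 to 6 libraries of 1 group, 6 held a library that stood apart by Dixon's criterion, where chance flags about 1 in 20 groups, or 3.15 of these. All values are log2 CPM. Ripk1 stood at 5.77 in WT library 5 of day 3, against 5.43 in the next highest. Ripk3 stood at 0.42 in WT library 19 of day 21, where the next lowest library was at 0.98. Mlkl was 2.54 in WT library 33 of day 12 and at least 3.12 in the other WT libraries, and without that library the call of Mlkl at day 12 was lost. Fas was 3.45 in WT library 16 of day 12, with the next lowest at 4.17. Bid was 3.82 in HNKO library 23 of day 3 (next highest 3.66) and 4.23 in WT library 27 of day 6 (next highest 4.02).

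The 2 HNKO libraries of day 21 that failed quality control entered only the fits over all 40 libraries, and their values lay on both sides of the WT libraries of that day. In library 18, Ripk3 was 1.19 (highest WT library 1.04), Mlkl 4.02 (3.22), Casp1 2.30 (2.06), and Gsdmd 5.10 (5.06). In library 17, Casp1 was 4.10. Below every WT library of that day lay, in library 17, Ripk1 at 4.52 (lowest WT library 5.21), Casp8 at 4.45 (4.96), Gsdmd at 3.42 (4.82), Fas at 3.53 (3.94), and Bcl2l11 at 3.82 (4.08), besides Ripk3 with 0 counts and Bid with 2, and in library 18 Casp8 at 4.85 and Fas at 3.52. The difference between these libraries and the others was not tested.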

How the results depend on the processing

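No paired analysis was possible because each library number belongs to a single library. Genes called at days 3, 6, 12, and 21 numbered 945, 2596, 1588, and 634. With all 40 libraries they were 331, 1321, 624, and 1350. With only the 2 groups of the day they were 420 at day 3, 1325 at day 6, and 867 at day 12, and with DESeq2 1428 at day 3 and 994 at day 21. Leaving out 1 library gave 322 to 1668, 1126 to 3027, 852 to 1750, and 13 to 718 genes. Members called, 1, 3, 2, and 0 at the 4 days, became 0, 1, 0, and 2 with all 40 libraries, 0 at days 3 and 12 with only the 2 groups, 0 at day 3 and 1 at day 12 without the filter, 2 at day 3 and 1 at day 21 with DESeq2, and 1 at day 21 with the series as a covariate. Without 1 library they were 0 to 1 at day 3, 0 to 2 at day 12, and 0 to 1 at day 21. The day effect called 1 member in WT with the series as a covariate and with DESeq2, and 2 in HNKO with DESeq2. Without the 2 farthest libraries, r of Ripk3 with leukocyte markers was 0.42 and 1 pair of members passed. With the means of the library series removed, a setting chosen after seeing the data, as were those of the pairs, r with leukocyte markers was 0.32 for Ripk3 and -0.0588 for Ripk1, and 0 pairs passed.

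Signs changed for some differences, none of them called, of which the largest were 0.23 for Gsdmd at day 21 and -0.15 for Bcl2l11 at day 3. At day 21, Ripk1 was 0.0091 with the series as a covariate, Casp8 was 0.0017 with the DESeq2 size factors, 0.0026 without the filter, 0.0167 with the 2 groups, and 0.0014 with DESeq2, Gsdmd was -0.0015 with all 40 libraries, Fas was 0.00051 with the 2 groups, and Bcl2l11 was -0.0718 with all 40 libraries and -0.0734 with the series as a covariate. Without 1 library, Ripk1 ran from -0.0748 to 0.0539 at day 3, from -0.0342 to 0.105 at day 6, and from -0.0417 to 0.104 at day 12, Casp1 from -0.0649 to 0.0902 at day 3, Bcl2l11 from -0.275 to 0.0325 at day 3 and from -0.0832 to 0.195 at day 21, Bid from -0.00915 to 0.102 at day 6, Casp8 from -0.0527 to 0.0555 and Fas from -0.0848 to 0.0978 at day 21. Except where the fit had fewer libraries, the cause of these changes was not tested. Over 7 other settings the call of Mlkl at day 6 was kept in 7, of Casp1 at day 6 in 6, of Ripk3 at day 12 in 5, and of Mlkl at days 3 and 12 and Ripk3 at day 6 in 4 each. Depth limits Ripk3 the most, with as few as 32 counts in a library.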
